A study of Mus musculus with 9 samples.

Results

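The 10 genes described here encode RNA-binding proteins that change the RNA program of muscle as it matures: Igf2bp1, Igf2bp2, Igf2bp3, Lin28b, Celf1, Celf2, Mbnl1, Mbnl2, Mbnl3 and Rbfox1. They were chosen by symbol, and all 10 were found among the 32594 genes of the deposited count table. Hindlimb skeletal muscle RNA was sequenced in 4 libraries from SMN delta 7 mice and 5 from wild type mice, called SMA and WT below, all of FVB/N background. SMN delta 7 mice model spinal muscular atrophy, in which too little survival motor neuron protein leads to loss of motor neurons and wasting of muscle. The labels give no age, litter, muscle or allele structure for either group. They also do not say that each library came from its own animal, so the p-values reflect only the scatter among these libraries, part of which may be technical. Y-linked genes were expressed in 1 of 4 SMA libraries and 4 of 5 WT libraries, so the groups differed in this too in every comparison below.

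The IGF2BP proteins bind messenger RNAs such as those of Igf2, Actb and Myc and affect their stability, transport and translation, and they are known as proteins of fetal tissues. LIN28B blocks the maturation of the let-7 microRNAs, which in turn repress a set of fetal messenger RNAs. CELF and MBNL proteins act against each other on many alternative exons of muscle: CELF activity is high in fetal muscle, whereas MBNL proteins become more active as muscle matures and are sequestered in myotonic dystrophy. RBFOX1 binds a short motif beside alternative exons and is abundant in adult muscle and brain. The table holds 1 value per gene, so exon inclusion was not measured.

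All 3 Igf2bp genes rose in SMA muscle, although Igf2bp1 had few counts and entered the test only through SMA. Mbnl1 fell and Mbnl2 rose by a small amount, so that the ratio of Mbnl2 to Mbnl1 was higher in SMA. Celf1 and Celf2 did not pass the test, Rbfox1 fell by a small amount under the scaling used, and Lin28b was close to absent.

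Depth was 24917665 to 35087722 counts per library. Levels are given as CPM, counts-per-million of a library total that was scaled with TMM, the trimmed mean of M values. Changes are log2 fold changes of SMA over WT with their standard error (SE), and a change was called where the adjusted p was under 0.05. The p-values come from the quasi-likelihood test of edgeR, adjusted by Benjamini-Hochberg over 15873 tested genes. Of the tested genes, 54.9% were called, made up of 27.7% called higher and 27.2% called lower. Over all tested genes the median log2 fold change was 0.24 under scaling to total counts and 0.01 under TMM, so every change is relative to the scaling. Smn1, the mouse gene for the missing protein, had 1.40 to 2.72 CPM in SMA and 11.1 to 13.8 CPM in WT, which matched all 9 labels. Defining markers of muscle fibres were all detected, with a summed level of 59428 to 74540 CPM in SMA and 108517 to 150816 CPM in WT, where 6 of the 8 fell. Library SMA 3 stood apart. Its 6 neuron markers summed to 29.9 CPM, against 0.64 to 1.12 CPM in the other SMA libraries and 0.55 to 0.84 CPM in WT. In bulk muscle, fewer cells of a type and less RNA per cell cannot be told apart.

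**Figure D1:**
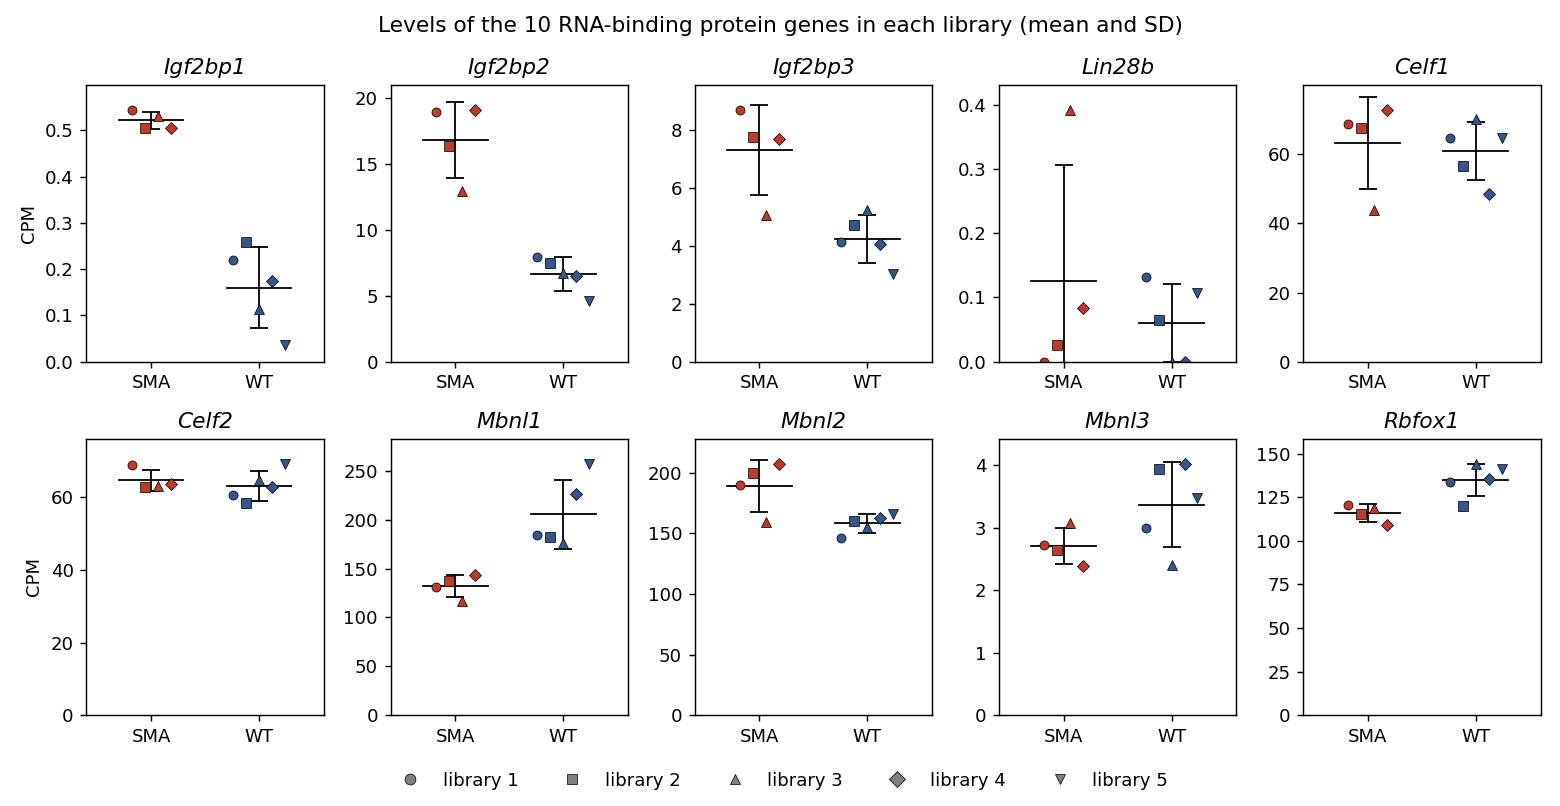
Level of each of the 10 genes in every library, in CPM on a linear axis starting at 0, with SMA on the left and WT on the right of each panel; symbols mark the library number, horizontal lines the mean and bars the SD. The groups stand apart for Igf2bp1, Igf2bp2 and Mbnl1, and SMA 3 (triangle) is the lowest SMA library for Igf2bp2, Igf2bp3, Celf1, Mbnl1 and Mbnl2.

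Igf2bp2 (chr16:22059009-22163299, minus strand, mm10), the family member that stays expressed in adult tissues, was the most abundant of the 3 and rose 2.53-fold. It had 18.9, 16.3, 12.97 and 19.1 CPM in SMA 1 to 4, against 7.96, 7.48, 6.71, 6.50 and 4.61 CPM in WT 1 to 5. Every SMA library lay above every WT library, with SMA 3 the lowest of its group and WT 5 the lowest of all. Its log2 fold change was 1.34 ± 0.16 (SE; edgeR adjusted p = 2.6e-05), and it was 1.45 without SMA 3.

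Igf2bp3, which is mainly known from fetal tissue and tumours, rose less. Its level was 8.70, 7.77, 5.09 and 7.72 CPM in SMA 1 to 4, against 4.13, 4.74, 5.26, 4.09 and 3.05 CPM in WT 1 to 5. The groups overlapped only through SMA 3, which fell below WT 3. The log2 fold change of Igf2bp3 was 0.78 ± 0.18 (SE; edgeR adjusted p = 0.0030), and without SMA 3 it was 0.92. In GENCODE M21 the 3′ end of Igf2bp3 (chr6:49085223-49214957, minus strand, mm10) overlaps the oppositely oriented gene Malsu1 (chr6:49073795-49086751), a mitochondrial ribosome assembly factor. Malsu1 had a log2 fold change of 0.0064 ± 0.084 (SE), and no source says whether reads were assigned by strand.

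Igf2bp1 (chr11:95957163-96005940, minus strand), the founding member that holds Actb mRNA during its transport, was rare. It had 19, 19, 19 and 18 counts in SMA 1 to 4, against 5, 8, 3, 5 and 1 counts in WT 1 to 5. As levels these were 0.51 to 0.54 CPM in SMA and 0.04 to 0.26 CPM in WT, so the groups did not overlap. Exact Poisson intervals (95%, counting error only) did: 0.30 to 0.80 CPM in SMA 4 and 0.11 to 0.51 CPM in WT 2. The log2 fold change was 1.67 ± 0.37 (SE; edgeR adjusted p = 0.0024). Igf2bp1 reached the low-count filter, 10 counts in a library of median size in at least 4 libraries, in 4 SMA and 0 WT libraries, so it entered the test only through the group where it was high. Without the filter its log2 fold change was 1.66 (edgeR adjusted p = 0.0076).

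Summed over the family, Igf2bp transcripts came to 24.7 ± 4.33 CPM in SMA and 11.1 ± 2.00 CPM in WT (SD, n = 4 and 5). Igf2bp2 supplied 68.3% ± 1.79 of the family's counts in SMA and 60.1% ± 3.23 in WT, and Igf2bp3 supplied 29.5% ± 2.02 in SMA and 38.5% ± 3.59 in WT. Markers of dividing cells went the other way: all 7 of 7 fell, with a summed level of 28.3 to 37.2 CPM in SMA and 110 to 148 CPM in WT. For satellite cells and myoblasts, 3 of 7 markers rose and 0 fell, with sums of 123 to 134 CPM in SMA and 110 to 133 CPM in WT. The part of these cells in the Igf2bp values was not tested.

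In the 1 coding transcript searched per gene, all 3 Igf2bp genes and Lin28b hold a let-7 seed match in the 3′ untranslated region (UTR). The other 6 genes hold none there, but their other 3′ ends were not searched. The searched UTR had 846 bases for Celf2 and 3389 bases for Mbnl1. The sequences are shown because the matches found divide the 10 genes into these groups. The seed is bases 2 to 8 of the microRNA, in capitals below. It is the same 7 bases in all 9 mature mouse microRNAs of the family in the RefSeq annotation (GRCm38.p6), of which 3 are given.
mmu-let-7a-5p: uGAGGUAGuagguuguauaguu
mmu-let-7d-5p: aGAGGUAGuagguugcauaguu
mmu-miR-98-5p: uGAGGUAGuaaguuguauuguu
The match searched was CTACCTC on the transcript strand of 1 coding transcript per gene (GENCODE M21, same build). In the sites below it is in capitals, and an A directly after it extends the match opposite the first base of the microRNA.
Igf2bp1 site 1 (chr11:95961776-95961799, minus strand): ctgtgcgaagtaaaCTACCTCaag
Igf2bp1 site 2 (chr11:95959355-95959378, minus strand): agcagtgctattaaCTACCTCagc
Igf2bp1 site 3 (chr11:95958761-95958784, minus strand): tataaatggatgaaCTACCTCagt
Igf2bp1 site 4 (chr11:95958138-95958161, minus strand): cttttggttttaatCTACCTCtta
Igf2bp2 site 1 (chr16:22059471-22059494, minus strand): cacacaaataaaagCTACCTCagg
Igf2bp3 site 1 (chr6:49086785-49086808, minus strand): gcatttttactcaaCTACCTCagg
Lin28b site 1 (chr10:45381020-45381043, minus strand): cccgggcgggaagtCTACCTCatg
Lin28b site 2 (chr10:45378646-45378669, minus strand): atacttgttagtaaCTACCTCtga
Lin28b site 3 (chr10:45378474-45378497, minus strand): tttacagcacatggCTACCTCcca
Lin28b site 4 (chr10:45377058-45377081, minus strand): aatgatggcaccgaCTACCTCttc

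Among tested genes with a 3′ UTR of similar length, from one that is 0.5 to one that is 2 times as long, such a match was present in 26.4% for Igf2bp1, 12.01% for Igf2bp2, 13.6% for Igf2bp3 and 20.8% for Lin28b. At least 4 matches, the number in Igf2bp1, were present in 0.18% of the genes of a length like that of Igf2bp1. Over the transcriptome, of 1287 tested genes with at least 1 match, 26.7% were called higher and 27.3% lower. Of 12231 genes without one, 27.6% were higher and 28.6% lower. These groups were not matched for length, with a median 3′ UTR of 2272 bases with a match and 927 without. The part of let-7 in the Igf2bp values was not tested. This grouping of genes was made after the values had been seen. Mature let-7 was not measured, since the libraries were made from polyadenylated RNA.

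Lin28b (chr10:45376620-45486395, minus strand) was at the edge of detection and was not tested, because it reached the filter in 1 library. It had 0, 1, 14 and 3 counts in SMA 1 to 4, against 3, 2, 0, 0 and 3 counts in WT 1 to 5. SMA 3 alone held 14 of the 18 SMA counts, a level of 0.39 CPM with an exact Poisson interval of 0.21 to 0.66 CPM (95%, counting error only). A count of 0, where 3 counts is taken as the limit, allows up to 0.09 CPM in SMA 1 and 0.10 to 0.11 CPM in WT 3 and WT 4. Fitted without the filter, the log2 fold change was 1.02 ± 1.04 (SE; edgeR adjusted p = 0.46). The SMA libraries other than SMA 3 averaged 0.037 CPM, against 0.061 CPM over the WT libraries, so the SMA mean exceeded the WT mean only through SMA 3.

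The same library was the one with neuronal transcripts. Snap25, which encodes a protein of synaptic vesicle fusion, had 0.11, 0.03, 7.69 and 0 CPM in SMA 1 to 4 and 0 to 0.04 CPM in WT. Tubb3, a neuronal tubulin, had 10.3 CPM in SMA 3, 0.21 to 0.23 CPM in the other SMA libraries and 0.16 to 0.79 CPM in WT. Rbfox3, a relative of Rbfox1 known as the neuronal antigen NeuN, is itself among the neuron markers summed above. It had 2.54 CPM in SMA 3, 0.03 to 0.29 CPM in the other SMA libraries and 0 to 0.08 CPM in WT. Schwann cell markers were also higher in SMA, with 5 of 6 called and sums of 986 to 2226 CPM in SMA and 386 to 885 CPM in WT. SMA 3 was the highest, but SMA 1 was close at 2119 CPM, with neuron markers that summed to 1.12 CPM. The part of neural RNA in the Lin28b counts was not tested.

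**Figure D2:**
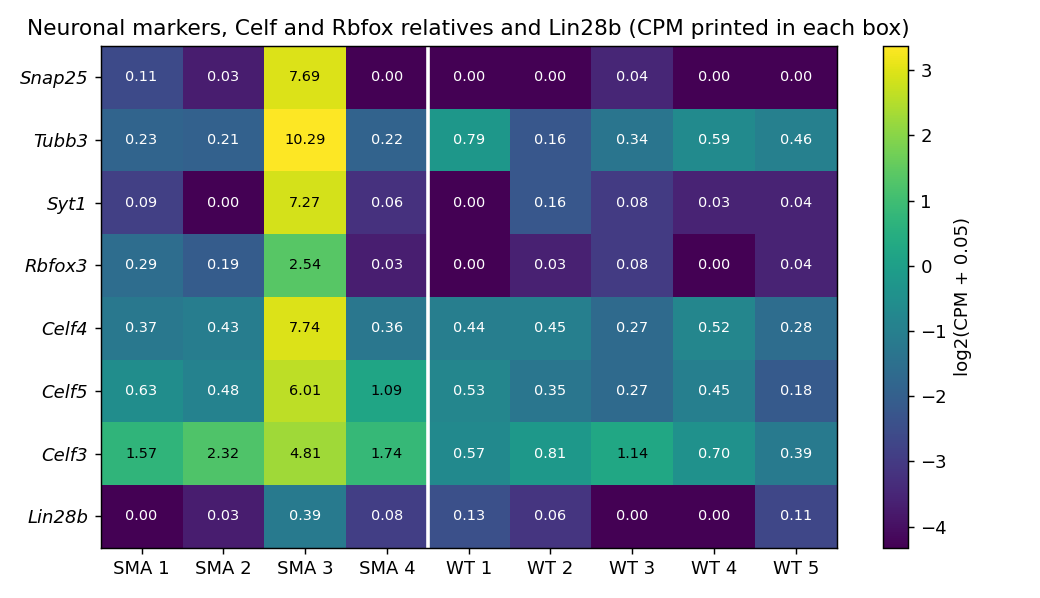
Level in CPM, printed in each box and coloured as log2(CPM + 0.05), with SMA libraries on the left and WT libraries on the right. Rows show the neuronal markers Snap25, Tubb3, Syt1 and Rbfox3, then Celf4, Celf5, Celf3 and Lin28b. SMA 3 is the highest library for all 8 genes, with 7.69 CPM of Snap25 and 0.39 CPM of Lin28b.

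Mbnl1 (chr3:60472830-60629750, plus strand), the main splicing factor of the family in muscle, fell. Its level was 131, 137, 117 and 143 CPM in SMA 1 to 4, against 184, 183, 177, 226 and 257 CPM in WT 1 to 5. No SMA library reached the lowest WT library, and WT 5 was the highest. The log2 fold change of Mbnl1 was -0.64 ± 0.12 (SE; edgeR adjusted p = 9.1e-04), and it was -0.40 under scaling to total counts, where it was also called.

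Mbnl2 (chr14:120275669-120431697, plus strand), which shares targets with Mbnl1 and is best known from brain, had 190, 199, 159 and 207 CPM in SMA 1 to 4, against 146, 160, 155, 163 and 166 CPM in WT 1 to 5. SMA 3 lay inside the WT range and the other SMA libraries above it. Mbnl2 rose, with a log2 fold change of 0.26 ± 0.09 (SE; edgeR adjusted p = 0.029), and 0.33 without SMA 3. That call was lost without SMA 1, SMA 2 or SMA 4, without WT 1 or WT 3, without the low-count filter and with Y-linked expression as a covariate, at adjusted p from 0.055 to 0.100. Y-linked genes were expressed in 1 of 4 SMA libraries and 4 of 5 WT libraries.

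Mbnl3 (chrX:51117269-51206532, minus strand), a gene whose product is linked to proliferating muscle precursors, was far rarer, with 2.70 ± 0.28 CPM in SMA and 3.36 ± 0.68 CPM in WT (SD, n = 4 and 5). Its range was 2.39 to 3.08 CPM in SMA and 2.40 to 4.02 CPM in WT, so the groups overlapped. With a log2 fold change of -0.32 ± 0.17 (SE), Mbnl3 did not pass (edgeR adjusted p = 0.14), although it passed without WT 3, with -0.42 (edgeR adjusted p = 0.047). The value was smaller under scaling to total counts, at -0.088 (edgeR adjusted p = 0.74), and with the Y-linked covariate, at -0.15 (edgeR adjusted p = 0.60).

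As shares of the family's counts, which need no scaling, Mbnl1 took 40.9% ± 0.70 in SMA and 55.7% ± 3.23 in WT (SD, n = 4 and 5), and Mbnl2 took 58.3% ± 0.87 in SMA and 43.4% ± 3.21 in WT. The Mbnl2 share was 57.0% to 58.8% in SMA, against 38.9% to 46.5% in WT. The summed level of the 3 genes was 324 ± 32.2 CPM in SMA and 367 ± 41.4 CPM in WT.

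Celf1 (chr2:90940382-91019497, plus strand), whose product opposes MBNL on exons and speeds the decay of GU-rich messenger RNAs, had 68.8, 67.5, 43.7 and 72.7 CPM in SMA 1 to 4, against 64.5, 56.6, 70.0, 48.6 and 64.6 CPM in WT 1 to 5. The groups overlapped, and SMA 3 was the lowest of all libraries, at 62.7% of the mean of the other SMA libraries. With a log2 fold change of 0.05 ± 0.15 (SE), Celf1 did not pass (edgeR adjusted p = 0.78), and without SMA 3 its log2 fold change was 0.19 (edgeR adjusted p = 0.14).

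Celf2 (chr2:6539694-7509563, minus strand), a paralog that is abundant in heart and brain, was among the steadiest of the 10. Its level was 68.8, 62.8, 63.2 and 63.7 CPM in SMA 1 to 4, against 60.7, 58.4, 64.7, 62.8 and 69.1 CPM in WT 1 to 5. The ranges overlapped almost wholly, and its coefficient of variation was 4.37% in SMA and 6.50% in WT. The log2 fold change of 0.03 ± 0.07 (SE) did not pass (edgeR adjusted p = 0.72), whereas scaling to total counts gave 0.27 with a call (edgeR adjusted p = 0.0050).

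Rbfox1 (chr16:5885355-7411526, plus strand) had 121, 115, 119 and 109 CPM in SMA 1 to 4, against 134, 120, 144, 135 and 141 CPM in WT 1 to 5. WT 2 lay just below the highest SMA library, and the other WT libraries lay above all SMA libraries. The log2 fold change was -0.22 ± 0.08 (SE; edgeR adjusted p = 0.030). Under scaling to total counts the direction turned, to 0.02 (edgeR adjusted p = 0.83), so the fall of Rbfox1 rests on the scaling. The call was also lost without SMA 2, SMA 4 or WT 3, with the Y-linked covariate and with the replicate number as a block, at adjusted p from 0.053 to 0.095.

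Counted together, 4 of the 9 tested genes were called higher and 2 lower, against 27.7% and 27.2% of all tested genes. For 3 of the 9, Igf2bp1, Igf2bp2 and Mbnl1, the groups did not overlap, as they did not for 44.2% of all tested genes. Igf2bp1 is in these counts only through SMA, the group where it reached the filter. With 6 of 9 called beside 54.9% of all genes, the number of calls does not set the 10 genes apart.

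**Figure D3:**
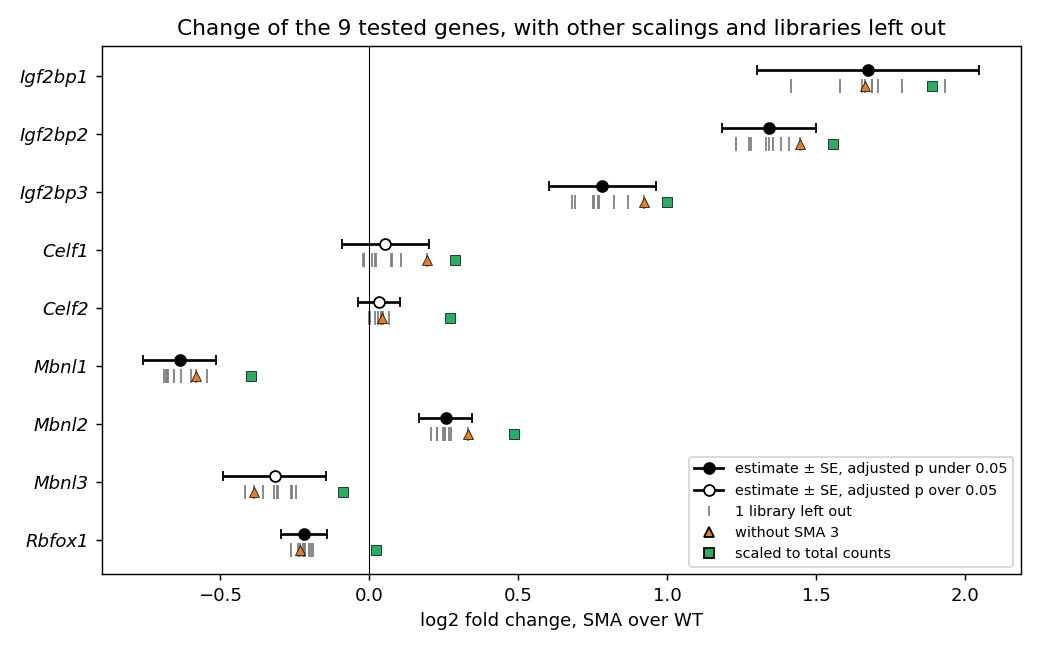
Log2 fold change of SMA over WT for the 9 tested genes, with circles and bars for the estimate and its SE (filled where the adjusted p is under 0.05), grey ticks for fits with 1 library left out, triangles for the fit without SMA 3 and squares for scaling to total counts. Squares lie to the right of the circles for all 9 genes, and the square of Rbfox1, at 0.02, lies on the other side of 0.

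Ratios between related genes within a library do not depend on scaling. For 6 of them SMA and WT were compared with an exact permutation test, two-sided and enumerating all ways to divide the libraries, and the p-values were adjusted over the 6 by Benjamini-Hochberg. The ratio of Mbnl2 to Mbnl1 counts was 1.44, 1.46, 1.36 and 1.45 in SMA 1 to 4, against 0.79, 0.88, 0.88, 0.72 and 0.65 in WT 1 to 5. The SMA ratios lay close together and all above the WT ratios. These are ratios of counts, not corrected for length: per kilobase of annotated exon, Mbnl2 lay above Mbnl1 in all 9 libraries, by least in WT 5, with 13.9 CPM per kb of Mbnl2 and 13.7 CPM per kb of Mbnl1. On the log2 scale the ratio was higher by 0.87 in SMA (exact permutation p = 0.0079, the smallest the design can give, adjusted p = 0.048).

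Igf2bp3 and Igf2bp2 also moved apart, since Igf2bp2 rose more. Their count ratio was 0.46, 0.48, 0.39 and 0.40 in SMA 1 to 4, against 0.52, 0.63, 0.78, 0.63 and 0.66 in WT 1 to 5, with no overlap. The log2 ratio differed by -0.57 (exact permutation p = 0.016, adjusted p = 0.048). Celf1 over Mbnl1, a pairing of antagonists, was 0.37 to 0.52 in SMA and 0.21 to 0.40 in WT, higher by 0.66 on the log2 scale, and did not pass after adjustment (exact permutation p = 0.032, adjusted p = 0.063). The ratios of Mbnl3 to Mbnl1 (difference 0.33, exact permutation p = 0.13), Igf2bp1 to Igf2bp2 (0.44, exact permutation p = 0.27) and Celf2 to Celf1 (-0.0031, exact permutation p = 0.99) did not pass either. The difference for Igf2bp1 to Igf2bp2 was 0.18 without WT 5 and 0.069 with 2 counts in place of 0.5 added to each gene, and that for Mbnl3 to Mbnl1 was 0.21 without SMA 3.

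**Figure D4:**
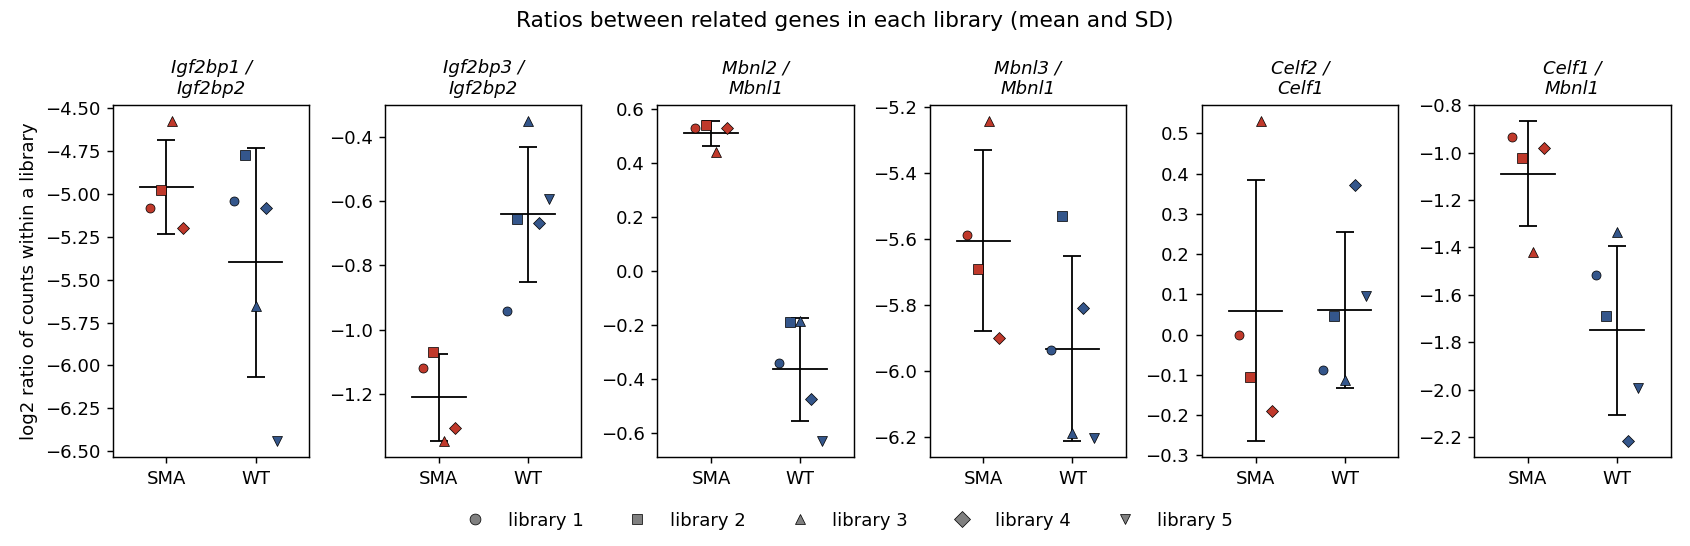
Log2 ratio of counts within each library for 6 pairs of related genes, SMA on the left and WT on the right of each panel, with symbols for the library number, lines for the mean and bars for the SD; each panel has its own axis, which does not start at 0. The SMA and WT libraries separate for Igf2bp3 over Igf2bp2 and for Mbnl2 over Mbnl1, and SMA 3 is the highest library for Celf2 over Celf1 at 0.53.

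Levels between genes were compared per kilobase of annotated exon (CPM per kb, over the union of GENCODE M21 exons, which may not be those used in the counting). In SMA muscle Rbfox1 was highest at 26.3 ± 1.18, followed by Mbnl2 at 15.7 ± 1.77, Celf1 at 7.48 ± 1.56 and Mbnl1 at 7.06 ± 0.60 CPM per kb (SD, n = 4). In WT muscle the order was Rbfox1 at 30.6 ± 2.11, Mbnl2 at 13.2 ± 0.66, Mbnl1 at 11.0 ± 1.87 and Celf1 at 7.20 ± 0.99 CPM per kb (SD, n = 5). Celf1 and Mbnl1 differed by less than their spread in SMA. In SMA, Celf2 at 2.50 ± 0.11 and Igf2bp2 at 2.27 ± 0.39 were also neighbours within their spread. WT muscle had 2.44 ± 0.16 CPM per kb of Celf2 and 0.90 ± 0.17 of Igf2bp2. Igf2bp3 reached 0.90 ± 0.19 CPM per kb in SMA and 0.52 ± 0.10 in WT, and Mbnl3 reached 0.31 ± 0.033 in SMA and 0.38 ± 0.077 in WT. Igf2bp1 lay at 0.054 ± 0.0020 CPM per kb in SMA and 0.017 ± 0.0091 in WT. Lin28b, at 0.014 ± 0.020 in SMA and 0.0067 ± 0.0067 in WT, was lowest in both, within the spread of Igf2bp1 in WT. The SD of Igf2bp1 in SMA, from 18 or 19 counts per library, is narrower than counting error.

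Of 7 other genes of these families, 5 were tested, 3 rose and 1 fell, with a median log2 fold change of 1.85 against 0.01 for all tested genes. Called higher were 27.7% of all tested genes, and called lower 27.2%. Without SMA 3 the same 5 genes had a median of 0.26, and 2 of them rose and 1 fell. The brain-enriched genes Celf3, Celf4 and Celf5 were the ones that rose, and SMA 3 was the highest library for each. Celf3 had 1.57, 2.32, 4.81 and 1.74 CPM in SMA 1 to 4, against 0.39 to 1.14 CPM in WT, and its log2 fold change was 1.85 ± 0.37 (SE; edgeR adjusted p = 0.0013), or 1.37 without SMA 3 (adjusted p = 0.0018). Celf5 had a log2 fold change of 2.53 ± 0.71, or 1.05 without SMA 3 (edgeR adjusted p = 0.033). For Celf4 the log2 fold change was 2.49 ± 0.90, but -0.02 without SMA 3 (edgeR adjusted p = 0.96).

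Lin28a, the paralog of Lin28b with the same action on let-7, fell, with 0.26, 0.43, 0.59 and 0.20 CPM in SMA 1 to 4, against 0.84, 0.87, 1.07, 0.77 and 0.89 CPM in WT 1 to 5. The groups did not overlap, and its log2 fold change was -1.26 ± 0.31 (SE; edgeR adjusted p = 0.0044). Lin28a rests on 53 SMA and 121 WT counts. SMA 1 and SMA 4, with 9 and 7 counts, did not reach the low-count filter. Lin28a thus entered the test only with the WT libraries, where it was high. Rbfox2, the widely expressed relative of Rbfox1, had 255 ± 35.6 CPM in SMA and 228 ± 28.9 CPM in WT (SD, n = 4 and 5) and did not pass (edgeR adjusted p = 0.27).

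Of 26 tested let-7 axis genes, 11 rose, 3 fell and 12 did not pass, beside 27.7% higher and 27.2% lower among all tested genes. The list covers let-7 processing, let-7 hosts and known targets, and its median log2 fold change was 0.37. Insr, the insulin receptor, rose by 0.74 ± 0.08 on the log2 scale, with 112 ± 8.63 CPM in SMA and 67.2 ± 4.71 CPM in WT (SD, n = 4 and 5). Igf1r, the receptor of insulin-like growth factors, rose by 0.86 ± 0.11. Among those that fell were Mycn, a growth-promoting transcription factor, at -1.59 ± 0.24, and Ccnd1, cyclin D1, at -0.79 ± 0.14. Chosen after its values were seen, as was Nr6a1, the fetal chromatin gene Hmga2, with 4 let-7 matches, rose by 1.29 ± 0.30, on 65 SMA and 25 WT counts and tested only through SMA, since it reached the filter in 4 SMA and 0 WT libraries. Nr6a1, a nuclear receptor gene with 8 matches, rose by 0.78 ± 0.14. In the same list the let-7 host transcript Mirlet7bhg rose by 0.86 ± 0.23, and the row of the let-7d hairpin, Mirlet7d, rose by 0.95 ± 0.28. These 8 genes had edgeR adjusted p-values from 1.3e-05 to 0.013. Looked up after the values were seen, let-7 matches were also present in Igf1r (2), Hmga1 (1) and Insr (1), which rose. They were present too in Lin28a (2), which fell, and in Ago2 (3) and Arid3a (2), which did not pass. Tarbp2, Arid3b, E2f5, Plagl2 and Irs2, with 1 match each, did not pass either. Mycn and Ccnd1, which fell, had 0, and so did Ccnd2, Drosha and Xpo5, which rose.

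Among 14 tested messenger RNAs known to be bound by IGF2BP proteins, 6 rose, 3 fell and 5 did not pass, with a median log2 fold change of 0.15. The shares over all tested genes were 27.7% higher and 27.2% lower. Hmga1, a chromatin protein gene, rose by 0.88 ± 0.13 and Ccnd2, cyclin D2, by 0.72 ± 0.10. The adhesion receptor gene Cd44, at -0.65 ± 0.13, and Ccnd1, also in the let-7 list, fell. The 6 that rose include Hmga2, which was tested only through SMA. Hmga1, Hmga2 and Ccnd2 were also counted above among the let-7 axis genes that rose. Chosen after their values were seen, Igf2 rose by 0.95 ± 0.19 and the imprinted RNA H19 by 0.74 ± 0.15, while Actb at 0.01 ± 0.13 and Myc at -0.0014 ± 0.14 did not pass.

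Of 25 other tested splicing regulators of development, 6 rose, 4 fell and 15 did not pass, with a median log2 fold change of 0.05. Among all tested genes, 27.7% were higher and 27.2% lower. Ptbp2, the neural form of the polypyrimidine tract protein, rose by 0.73 ± 0.11, with 39.2 ± 4.47 CPM in SMA and 23.6 ± 2.95 CPM in WT (SD, n = 4 and 5), and the nuclear matrix protein gene Matr3 rose by 0.53 ± 0.08. Khdrbs3, of the STAR family of RNA-binding proteins, at -0.79 ± 0.20, and Hnrnph1, at -0.35 ± 0.09, fell. Muscle regulators Rbm20 at 0.15 ± 0.11 and Rbm24 at 0.14 ± 0.12 did not pass.

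Genes whose exons MBNL, CELF or RBFOX proteins regulate in muscle were lower more often than higher at the gene level. Of 26 tested, 4 rose, 14 fell and 8 did not pass, with a median log2 fold change of -0.31. Of all tested genes, 27.7% were called higher and 27.2% lower. Tpm1, a tropomyosin, fell by 1.36 ± 0.15 on the log2 scale, with 6841 ± 703 CPM in SMA and 17556 ± 2957 CPM in WT (SD, n = 4 and 5). Capn3, a muscle protease, fell by 0.87 ± 0.09, while Insr and Tnnt2, the cardiac and embryonic troponin T, which rose by 0.58 ± 0.11, went up. Clcn1, the muscle chloride channel that MBNL proteins splice, had -0.13 ± 0.10 and did not pass. Most of the list encodes fibre proteins, and the summed fibre markers given above were lower in SMA; their part in these counts was not tested.

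By mean absolute difference of centred log2 CPM over the 9 libraries, the genes most like Mbnl1, among 10689 with at least 5 mean CPM, were Pole4, Sdhaf3 and Ccdc50, at 0.058 to 0.061. Ccdc50 had 109 ± 15.5 CPM in SMA and 177 ± 26.8 CPM in WT (SD, n = 4 and 5). Igf2bp1 had the largest fitted rise, but it rests on 22 WT counts and exceeds that of Igf2bp2 by less than its SE. By the same measure, which rests on the few counts of Igf2bp1, the nearest of 15730 genes to it were AK048672, 2900005J15Rik and Tmem191c, at 0.17 to 0.19.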

How the data were processed

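The members and gene lists were chosen with earlier results of these data known. Per the labels' protocols, polyadenylated RNA was sequenced as paired reads of 75 bases after a stranded preparation from 200 ng of total RNA. Per the submitters' processing notes, HTSeq 0.9.1, DESeq2 1.16.1 and build mm10 were used. The sources used here do not give the aligner, annotation or strand setting. Values analysed are raw counts, whole numbers for each gene, as deposited. A further table deposited by the authors has the signal that results when a library's counts are divided by its size factor (0.73 to 1.23), and it served only to check this.

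From the counts, edgeR 4.0.16 in R 4.3.3 was run with filterByExpr (10 counts), TMM scaling and quasi-likelihood fits of all 9 libraries whose only term was the group, and tested on simulated data. The SE is the log2 fold change divided by the square root of the F statistic. Alternatives were total-count and median-of-ratios scaling, DESeq2 1.42.0, limma-voom 3.58.1, other filters, a Y-linked covariate, the replicate number as a block, and libraries left out. Ratios added 0.5 counts to each gene. No pair of libraries within a group agreed within sampling noise (chi-square per degree of freedom 12.02 to 87.6). Counting intervals and limits cover counting error only.

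Named were all 10 members, in each companion list the 2 called genes with the lowest adjusted p in each direction, and the 3 genes nearest to the members with the largest rise and fall. Others are marked as chosen after their values were seen, and Celf4, Rbfox2, Rbfox3, Rbm20, Rbm24, Clcn1, Malsu1, Mirlet7bhg, Mirlet7d and the neuronal markers were too. Of the 10 cell type lists, those not described in the results were lower or level: 4 of 6 macrophage, 4 of 6 fibroblast, 3 of 6 adipocyte, 1 of 5 endothelial and 3 of 3 tested erythroid markers fell, and 1 fibroblast marker rose. Of 6 neuron markers, 1 was tested and 0 were called.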

Additional observations from a re-analysis of the deposited data

Results flagged for a closer look

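In 32 groups of 4 or 5 values (10 genes and 6 ratios in SMA and in WT), 2 held a value far from the others for the size of the group, where chance gives about 1 in 20. Celf2 was at 68.8 CPM in SMA 1, above the other SMA libraries. The log2 ratio of Mbnl2 to Mbnl1 was 0.44 in SMA 3, below 0.53 to 0.54 in the other SMA libraries and above every WT library.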

How the results depend on the processing

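The log2 fold changes of Igf2bp1, Igf2bp2, Igf2bp3 and Mbnl1 kept their direction and their call in every setting that gave a value (Igf2bp1 had none under the stricter low-count filter). Members called higher were 3 to 5 in place of 4, the 5 under scaling to total counts, where Celf2 was added. Members called lower were 1 in place of 2 under scaling to total counts, with the Y-linked covariate and with the replicate block, and 1 to 2 with 1 library left out. Scaling to total counts gave 2164 genes lower in place of 4319, with 74.7% of calls higher against 50.4%, and Rbfox1 turned to 0.021. It also gave 18 let-7 axis genes, 13 splicing regulators and 7 splicing targets higher, and 1 splicing regulator lower. Without WT 5 and SMA 3 together, 7 splicing targets and 1 other family member were higher. Other family members called higher were also 1 by limma-voom, the stricter filter, the Y-linked covariate and the replicate block, and those called lower were 0 under the stricter filter. Splicing regulators called higher were 3 with the Y-linked covariate and with the replicate block.

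With 1 library left out, genes higher ranged from 3916 to 4536 and genes lower from 3739 to 4547, splicing regulators higher from 3 to 6, the Celf1 log2 fold change from -0.021 to 0.19, and the differences in log2 ratio from -0.16 to 0.080 for Celf2/Celf1, -0.64 to -0.50 for Igf2bp3/Igf2bp2 and 0.81 to 0.92 for Mbnl2/Mbnl1. Without WT 5 and SMA 3 these last were -0.51 and 0.83, with adjusted exact p of 0.11. With fewer libraries the smallest p that the permutations can give is larger, and no adjusted p of either ratio was under 0.05. The labels do not pair SMA and WT libraries of the same number. Deviations of same-numbered libraries had correlations of -0.05 to 0.12, within the -0.32 to 0.17 of the other pairs. With so few libraries these values cannot exclude a shared litter or batch. With the replicate block 3973 genes were higher and 3906 lower, and the calls of the members were those without it except Rbfox1, at -0.20 (edgeR adjusted p = 0.090). Low counts limit Lin28b and Igf2bp1. Causes of these shifts were not tested.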

Other observations

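Elavl3 and Elavl4, neural RNA-binding protein genes looked up after the data had been seen, were also highest in SMA 3. Elavl3 had 6.12 CPM in SMA 3, 0.08 to 0.28 CPM in the other SMA libraries and 0.035 to 0.43 CPM in WT. Elavl4 had 1.40 CPM in SMA 3, 0 to 0.027 CPM in the other SMA libraries and 0 to 0.065 CPM in WT. Other genes of the splicing regulator list were not highest in SMA 3. Elavl2 had 0.70 CPM in SMA 3 and 1.23 CPM in WT 1. Nova2 had 10.2 CPM in SMA 3 and 11.8 CPM in WT 5, and Nova1 and Ptbp2 were highest in SMA 1. Within WT, library 5 had the lowest Igf2bp1, Igf2bp2 and Igf2bp3 and the highest Celf2, Mbnl1 and Mbnl2 levels of the 5 libraries.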
